A study of Mus musculus with 24 samples.

Results

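Expression of 10 Notch pathway genes was followed through neural differentiation of female mouse embryonic stem cells (mESCs) with and without intact SmcHD1. The genes were chosen by name and were the ligand genes Dll1, Dll3 and Jag1, the receptor genes Notch1 and Notch2, the DNA-binding factor gene Rbpj and the target genes Hes1, Hes3, Hes5 and Hey1. They are 10 of the 23119 loci in the deposited expression table, each was found as an entry of its own, and all 10 were among the 12105 genes that were tested. Poly(A) RNA was sequenced from 24 libraries in 8 groups of 3, namely wild-type (WT) and SmcHD1-mutant (KO) cells of the JB4/EI7HZ2 line as mESCs, as day 7 cells, as day 9 cells and as neural stem cells (NSCs). JB4/EI7HZ2 is a hybrid female line with JF1 and B6 genomes. The libraries of a group came from separate experiments per the study's methods. The mESCs were kept in serum medium with LIF and inhibitors of MEK and GSK3. Cells at day 7 and day 9 were early neurectoderm grown as aggregates. NSCs were derived from mESCs by a separate protocol of weeks with FGF2 and EGF, so the 4 stages are not a single time course. All groups carry the drug-resistance genes of the line on the X chromosomes. The KO cells are a line made by CRISPR-Cas9 mutation of Smchd1 on both alleles, so genotype and line cannot be told apart. Each value is an FPKM, the authors' estimate of fragments per kilobase of transcript scaled to library size, after removal of reads from the X chromosome and from ribosomal RNA.

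In Notch signalling a transmembrane ligand of the Delta or Jagged family on a cell binds a Notch receptor on its neighbour, the receptor is cut, and its intracellular part enters the nucleus and joins the DNA-binding protein RBPJ. The complex turns on genes of the Hes and Hey families, whose products repress proneural genes. In the developing nervous system the pathway is known for keeping some cells as progenitors while their ligand-bearing neighbours become neurons.

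The promoters of 3 target genes, Hes1, Hes5 and Hey1, are shown because these are genes on which the pathway acts through RBPJ, a factor known to bind the letters GTGGGAA and TGGGAA. Each sequence was read from the mouse genome (mm9) from 250 bases before the 5′ end of the gene's locus in the deposited table to 30 bases after it, 5′ to 3′ on the gene's strand, with TGGGAA in capitals on either strand.
Hes1, chr16:30065193-30065472, plus strand: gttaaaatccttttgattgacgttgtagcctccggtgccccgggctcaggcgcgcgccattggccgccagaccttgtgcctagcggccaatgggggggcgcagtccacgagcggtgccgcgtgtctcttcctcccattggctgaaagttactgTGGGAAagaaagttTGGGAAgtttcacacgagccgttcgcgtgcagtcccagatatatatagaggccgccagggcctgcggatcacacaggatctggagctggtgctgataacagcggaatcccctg
Hes5, chr4:154334782-154335061, plus strand: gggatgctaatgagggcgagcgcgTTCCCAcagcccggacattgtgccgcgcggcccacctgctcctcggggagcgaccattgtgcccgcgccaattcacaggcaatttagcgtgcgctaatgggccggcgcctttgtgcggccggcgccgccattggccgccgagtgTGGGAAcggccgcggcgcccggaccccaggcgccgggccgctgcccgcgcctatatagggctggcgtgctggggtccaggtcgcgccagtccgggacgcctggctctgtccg
Hey1, chr3:8667009-8667288, minus strand: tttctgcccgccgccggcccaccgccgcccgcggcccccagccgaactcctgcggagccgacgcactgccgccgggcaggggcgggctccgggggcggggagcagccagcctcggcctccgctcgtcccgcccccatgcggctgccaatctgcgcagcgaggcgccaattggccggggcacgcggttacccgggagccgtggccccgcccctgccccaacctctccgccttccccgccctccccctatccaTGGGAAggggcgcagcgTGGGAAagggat
Hes1 held TGGGAA at positions -97 to -92 and -83 to -78 relative to the first base of its locus, both on the gene's strand. Hes5 held it at -226 to -221 on the opposite strand and at -82 to -77 on its own strand. Hey1 held it just after its start, at 2 to 7 and 19 to 24. The longer form GTGGGAA, which includes TGGGAA, was present in the windows of Hes1, Hes5 and Hey1. Of the 10 windows, 3 held TGGGAA and the same 3 held GTGGGAA. Among 20656 windows of this length taken in the same way at all loci with an annotated strand, 22.7% held TGGGAA and 5.57% held GTGGGAA. The letters CACNAG (N, any base), the N box to which Hes proteins are known to bind, were present 4 times in the Hes1 window, on either strand, and in 3 of the 10 windows, those of Hes1, Notch1 and Notch2, against 39% of all windows. These matches are letters in a window, and binding was not measured.

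All 10 loci are annotated as protein-coding genes in GENCODE for this build. The ligand gene Dll1 lies at chr17:15504318-15512787 on the minus strand, Dll3 at chr7:29078574-29086804 on the minus strand and Jag1 at chr2:136907187-136942256 on the minus strand. The receptor gene Notch1 lies at chr2:26313422-26359342 on the minus strand and Notch2 at chr3:97817461-97954290 on the plus strand. Rbpj lies at chr5:53947018-54048684 on the plus strand. The target genes lie at chr16:30065443-30067882 (Hes1, plus strand), chr4:151660081-151665771 (Hes3, minus strand), chr4:154335032-154336480 (Hes5, plus strand) and chr3:8663359-8667038 (Hey1, minus strand). No other locus of the deposited table overlaps any of them. The annotation places genes of the opposite strand within the loci of Notch1 (0610009E02Rik and Gm13568), Dll1 (A930024N18Rik) and Hes5 (RP24-89N4.5), and whether reads were counted by strand is not given in the sources used here.

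Relative read numbers of the libraries, estimated from the steps between low FPKM values and not from read totals, were 0.81 to 1.15. Smchd1 was at 13.0 to 26.4 FPKM in the 12 WT libraries and at 1.82 to 4.40 in the 12 KO libraries. The stages carried their labelled markers. Pou5f1, a pluripotency factor, was at 1240 to 1532 FPKM in the 6 mESC libraries and below 1 in the 6 NSC libraries, while Fabp7, a radial glia marker, was below 1 in mESCs and at 2286 to 4998 in NSCs. Day 7 cells still had Pou5f1 at 181 to 284 FPKM. The summed level of 8 pluripotency markers was 322 to 527 FPKM at day 7 in WT cells and 2916 to 3443 in WT mESCs. Within groups the libraries had Pearson correlations of log2(FPKM + 1) across the tested genes of 0.971 to 0.988, except that WT NSC replicate 1 reached only 0.955 and 0.964 with the other two. Differences of the 10 genes that involve WT NSCs are given without that library as well where its removal changed a call or moved the printed value by over 1.5 times. In bulk RNA a lower level can come from fewer cells of a type or from less RNA per cell, and these cannot be told apart.

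In WT cells, neural differentiation was accompanied by a rise of the ligands, the receptors and the targets, and by a fall of Rbpj. At day 7, all 10 genes had changed against WT mESCs at an adjusted p under 0.05 (limma on log2(FPKM + 1), Benjamini-Hochberg over 12105 genes), 9 of them higher and Rbpj lower, when 59.2% of all tested genes were called and 29.1% were called higher. At day 9 the same split of 9 higher and 1 lower was found, with 71.5% of all genes called and 36.4% called higher. In NSCs 8 were higher, Rbpj was lower and Hes3 did not pass the test, with 75.2% of all genes called and 36.9% called higher. The count of calls in NSCs was 8 or 9 with each library left out in turn and rested on Hes1 (0.61, adjusted p 0.0309), whose call was lost with the groups fitted alone (adjusted p 0.164) and without WT mESC replicate 1 or 3 or WT NSC replicate 2 or 3. The Hes1 difference from mESCs was 0.22 to 1.02 across the libraries left out, and it was 1.02 (SE 0.19) without WT NSC replicate 1. The median log2 difference of the 10 genes was 2.22 at day 7, 1.81 at day 9 and 1.95 in NSCs, against -0.02, 0.01 and -0.01 over all tested genes. In KO cells against KO mESCs the calls were 8 higher and 1 lower at day 7 (61.3% of all genes called, 29.5% higher), 9 higher and 1 lower at day 9 (71.3% and 35.7%) and 8 higher and 1 lower in NSCs (76.0% and 37.7%). The comparisons within a genotype share their mESC libraries. When every library was scaled to the same sum of FPKM, the median of all tested genes became 0.18, 0.34 and 0.36 in WT cells at day 7, day 9 and in NSCs. In KO cells it became 0.14, 0.24 and 0.44, from -0.04, 0 and 0 without the scaling. None of the called directions of the 10 genes turned under that scaling.

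**Figure D1:**
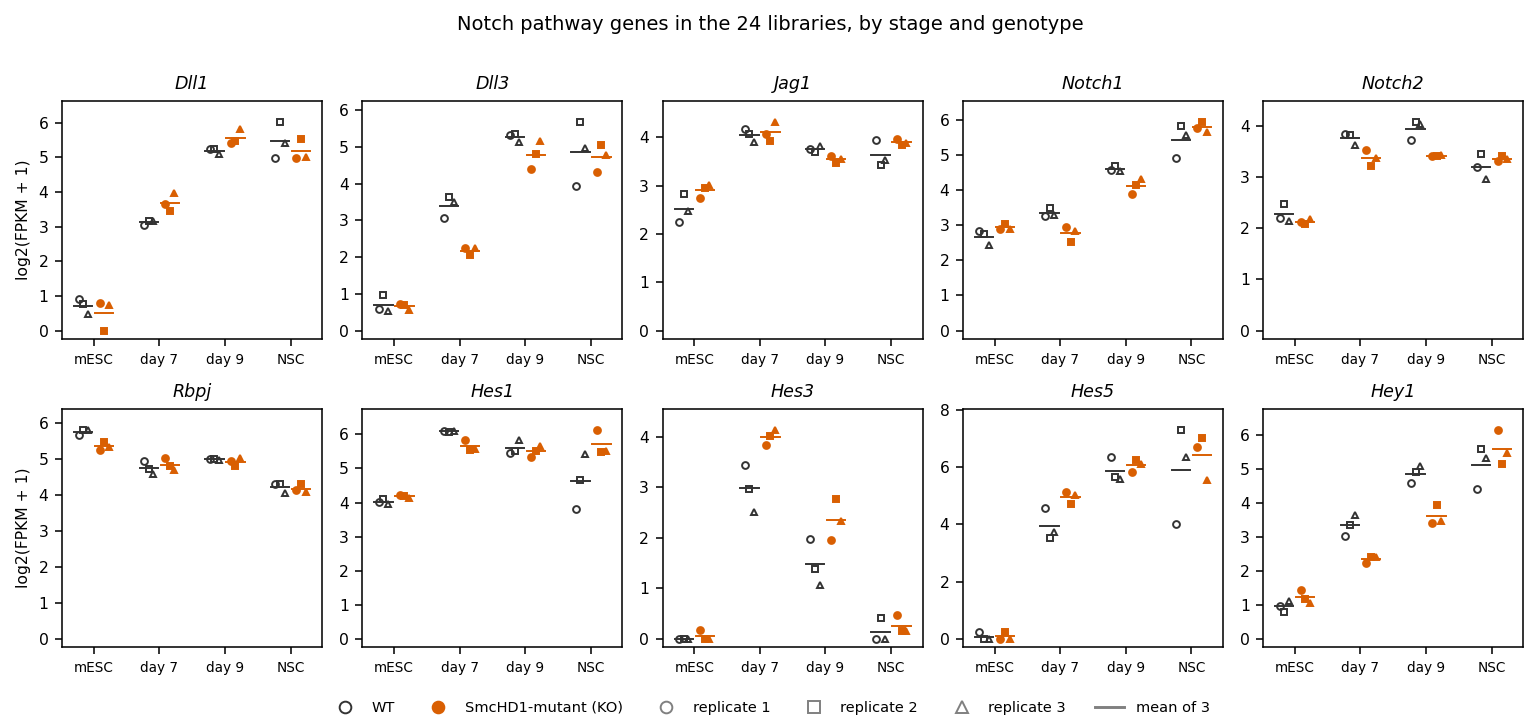
Level of each of the 10 Notch pathway genes, as log2(FPKM + 1), in the 24 libraries (y axis, scaled per gene) by stage (x axis); open symbols are WT, filled orange symbols KO, the symbol shape gives the replicate and each line is the mean of 3. Dll1, Dll3, Hes5 and Hey1 are near 0 or 1 in mESCs and high at day 9 and in NSCs, Hes3 is highest at day 7, and Rbpj is highest in mESCs.

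Dll1, which encodes the Delta-like ligand that activates Notch on neighbouring cells, was nearly silent in mESCs. Its FPKM in the 3 WT libraries was 0.892, 0.698 and 0.395 as mESCs, 7.34, 7.98 and 7.89 on day 7, 36.4, 36.5 and 33.5 on day 9, and 30.3, 64.3 and 41.7 as NSCs. In KO cells it was 0.737, 0 and 0.657, then 11.5, 9.86 and 14.5, then 41.7, 43.1 and 54.9, and 30.7, 45.4 and 31.3. Dll1 rose from mESCs to day 7 and again to day 9 without overlap of libraries in either genotype. The log2 rise from day 7 to day 9 was 2.06 (SE 0.23, adjusted p 4.55e-07) in WT and 1.88 (SE 0.23, adjusted p 2.35e-06) in KO cells.

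Dll3 encodes a divergent Delta-like protein that acts inside the cell and is known to dampen Notch signalling. Its FPKM was 0.489, 0.940 and 0.433 in WT mESCs, 7.33, 11.5 and 10.3 in WT day 7 cells, 39.4, 39.6 and 34.2 in WT day 9 cells and 14.2, 50.5 and 30.1 in WT NSCs. In KO mESCs it was 0.661, 0.629 and 0.481, in KO day 7 cells 3.72, 3.18 and 3.70, in KO day 9 cells 20, 27.0 and 34.8, and in KO NSCs 18.8, 32.1 and 26.6. At day 7 all KO libraries lay below the WT libraries. The log2 difference of day 7 against mESCs was 2.71 (SE 0.29) in WT and 1.51 (SE 0.29) in KO cells, and the difference between these was not called (-1.20, SE 0.41, adjusted p 0.203; 0.0326 with these groups fitted alone).

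Jag1, the ligand gene of the Jagged family among the 10, was already expressed in mESCs and changed less. It was at 3.74 to 6.12 FPKM in WT mESCs, 14 to 17.0 at day 7, 11.9 to 13.1 at day 9 and 9.79 to 14.5 in NSCs. The KO ranges were 5.72 to 7.08, 14.1 to 19.1, 10.1 to 11.3 and 13.4 to 14.7. Its level was highest at day 7 in both genotypes, and the fall from day 7 to day 9 passed the test in KO cells only (-0.56, SE 0.15, adjusted p 0.00593), with -0.29 (SE 0.15, adjusted p 0.134) in WT cells, where the libraries of day 7 and day 9 did not overlap either and the fit of these groups alone gave an adjusted p of 0.0413. Whether the falls differ between genotypes was not tested.

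The receptor genes rose at different stages. Notch1 was at 4.43 to 6.08 FPKM in WT mESCs, 8.65 to 10.2 at day 7, 22.4 to 25.0 at day 9 and 29.0 to 55.2 in NSCs. Each step up passed the test in WT cells, with log2 differences of 0.68 (SE 0.17, adjusted p 0.00213) to day 7, 1.26 (SE 0.17, adjusted p 8.62e-06) from day 7 to day 9, and 0.82 (SE 0.17, adjusted p 0.000372) from day 9 to NSCs. In KO cells Notch1 was at 6.42 to 7.15, then 4.74 to 6.67, then 13.7 to 18.9, and 49.7 to 60.9 FPKM, so no rise had been found by day 7 and the level was highest in NSCs. Notch2 had its higher levels at day 7 and day 9, with 11.3 to 13.3 and 12.2 to 16 FPKM in WT cells against 3.42 to 4.59 in mESCs and 6.80 to 9.88 in NSCs. It was lower in WT NSCs than at WT day 9 by 0.75 on the log2 scale (SE 0.13, adjusted p 4.49e-05). In KO cells Notch2 was at 3.25 to 3.52, 8.31 to 10.5, 9.67 to 9.75 and 8.89 to 9.61 FPKM, and no fall from day 9 to NSCs was called.

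Rbpj, the DNA-binding partner of the receptor's intracellular part, was the gene among the 10 that was lower than in mESCs at each later stage. It was at 49.0, 54.7 and 54.3 FPKM in WT mESCs, 29.9, 25.3 and 23.0 on day 7, 30.6, 31.1 and 30 on day 9, and 18.5, 18.8 and 15.6 as NSCs. The WT libraries of each later stage lay below those of mESCs, by 0.99 (SE 0.11), 0.77 (SE 0.11) and 1.53 (SE 0.11) on the log2 scale. In KO mESCs it was at 37.1, 43.2 and 39.2, in KO day 7 cells 31.3, 26.9 and 24.5, in KO day 9 cells 29.7, 26.8 and 31.5, and in KO NSCs 16.5, 18.5 and 15.9. When libraries were scaled to the same sum of FPKM the WT differences from mESCs were smaller, at -0.76, -0.40 and -1.09, and all 3 were still called. In KO cells the falls to day 7 and day 9 were no longer called under that scaling, at -0.30 (adjusted p 0.0561) and -0.15 (adjusted p 0.314) on the log2 scale.

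The 4 targets followed different courses. Hes1, a repressor of proneural genes that is also active in stem cells, was at 14.6 to 16.2 FPKM in WT mESCs, 65.6 to 67.8 at day 7, 42.7 to 56.6 at day 9 and 13.1, 24.4 and 41.9 in NSCs. In KO cells it was at 16.6 to 17.8, 45.6 to 56.3, 39.7 to 49.9 and 69.2, 43.5 and 44.7. Its WT level was highest at day 7, while the KO groups after mESCs lay within a narrower range. Hes5, a target strongly expressed in neural progenitors, was at 0.179, 0 and 0 FPKM in WT mESCs and at 0, 0.192 and 0 in KO mESCs, where each value above 0 stood for 1 read. It rose to 23.1, 10.6 and 12.4 in WT and 33.7, 25.4 and 31.6 in KO cells at day 7, and to 80.5, 49.0 and 46.7 in WT and 56.3, 75.3 and 68.0 in KO cells at day 9. In NSCs it spread widely, from 15.3 to 157 in WT and from 46.3 to 128 in KO cells.

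Hes3 was the target with the shortest period of expression. It was listed at 0 in all 3 WT mESC libraries and at 0.133, 0 and 0 in the KO ones, the value above 0 standing for 1 read. It was at 9.91, 6.85 and 4.73 FPKM in WT and 13.3, 15.2 and 16.6 in KO cells at day 7. By day 9 it had fallen to 2.95, 1.62 and 1.1 in WT and 2.87, 5.83 and 4.06 in KO cells, and in NSCs no library was above 0.386. The fall from day 7 to day 9 was 1.5 (SE 0.24, adjusted p 4.18e-05) in WT and 1.64 (SE 0.24, adjusted p 1.87e-05) in KO cells on the log2(FPKM + 1) scale, which understates changes of low values. Hey1, a target of the Hes-related family, rose in the WT libraries from 0.958, 0.716 and 1.17 FPKM in mESCs to 7.09, 9.21 and 11.4 at day 7 and 22.7, 29.0 and 32.6 at day 9. In KO cells it was at 1.73, 1.23 and 1.06, then 3.72, 4.26 and 4.25, then 9.68, 14.3 and 10.1. In NSCs it was at 20.2, 47.1 and 39.0 in WT and 69.3, 34.5 and 42.7 in KO cells. From day 9 to NSCs Hey1 was higher in KO cells by 1.97 (SE 0.26, adjusted p 1.03e-06), and in WT cells the difference was 0.26 (SE 0.26, adjusted p 0.413).

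From day 7 to day 9, 6 of the 10 genes were called in WT cells, 5 higher and Hes3 lower (33.8% of all genes called), and 6 in KO cells, 4 higher and 2 lower, Hes3 and Jag1 (30.6%). Dll1, Dll3, Notch1 and Hey1 were the genes called higher in both genotypes, and Hes5 was called in WT cells (1.90, SE 0.56, adjusted p 0.0149), a call lost without WT day 7 replicate 2 or WT day 9 replicate 1. The WT count was 5 to 7 with each library left out in turn, and with the groups fitted alone Hes1 was also called lower in WT cells (-0.49, adjusted p 0.00618, compared with 0.135). In KO cells the Hes5 difference was 1.11 (SE 0.56, adjusted p 0.149). With the groups of that comparison fitted alone, Hes5 was called in KO cells too (adjusted p 0.000211). Whether the Hes5 rise differs between genotypes was not tested. From day 9 to NSCs 5 were called in WT cells, Notch1 higher and Notch2, Rbpj, Hes1 and Hes3 lower (55.1% of all genes called). Without WT NSC replicate 1 the WT fall of Hes1 from day 9 was 0.55 (SE 0.19, adjusted p 0.0157) in place of 0.96, and it was not called with the groups fitted alone (adjusted p 0.0699). In KO cells 5 were called as well, Notch1, Hey1 and Jag1 higher and Rbpj and Hes3 lower (59.6%), of which the Jag1 call (0.36, adjusted p 0.0384) was lost without any of 5 of the 6 libraries, all but KO day 9 replicate 1. Without WT NSC replicate 1 the WT count was 8, since Dll1 (0.54, SE 0.23, adjusted p 0.0478), Hes5 (0.98, SE 0.37, adjusted p 0.0286) and Hey1 (0.61, SE 0.23, adjusted p 0.0318) were then called higher, when 7017 of the 12105 tested genes were called.

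Per length, the order of the 10 genes by level depended on the stage. In WT mESCs Rbpj was highest, at 52.7 ± 3.18 FPKM (SD, n = 3), above Hes1 at 15.3 ± 0.838, and Hes5 and Hes3 were at or near 0. At day 7 in WT cells Hes1 was highest, at 65.6 to 67.8 FPKM, above Rbpj at 26.1 ± 3.49. At day 9 in WT cells Hes5 (58.7 ± 18.9) and Hes1 (47.9 ± 7.60) had the highest means with overlapping libraries, and in WT NSCs Hes5 (84.8 ± 71.1), Dll1 (45.4 ± 17.3) and Notch1 (43.7 ± 13.4) did. Ordered by group mean, Dll3 was highest in WT day 9 cells and Dll1 in KO day 9 cells, each next to a NSC group whose libraries overlapped its own. Notch1, Hes5 and Hey1 were highest in KO NSCs and next highest in WT NSCs, again with overlapping libraries.

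Across the 8 group means, the levels of Dll1, Dll3, Hes5 and Hey1 went together, with Pearson coefficients of log2(FPKM + 1) from 0.89 to 0.98 among them. Notch1 was closest to Hey1 (0.94) and Hes1 to Notch2 and Jag1 (0.90 each). Rbpj had negative coefficients with the other 9 genes, from -0.08 with Hes3 to -0.86 with Hey1. These coefficients describe 8 means that share 2 cell lines and 4 stages. By the same measure the tested genes outside the wider Notch list nearest to Hes5 were Zfp579 (0.999), Phtf1 (0.996) and Fam171a2 (0.995), those nearest to Hey1 were Exoc1 (0.997), 1700113I22Rik and Tmem129 (0.994 each), and those nearest to Notch1 were Malat1 (0.997), Slc39a3 (0.993) and Ipw (0.992). The nearest to Dll1 were A830082K12Rik (0.998), Sepw1 and Mapk10 (0.996 each), to Dll3 Acd (0.994), Zmym5 (0.993) and the joint entry of Gp1bb and Sept5 (0.992), and to Jag1 Tgif2 (0.991), Rbm4 (0.988) and 2310044G17Rik (0.984). The nearest to Notch2 were Atp7b (0.989), Fam162a (0.985) and Plod2 (0.981), to Rbpj Erich1 (0.997), Ap2a2 (0.995) and Gk5 (0.985), to Hes3 Eml3 (0.994), Prss53 (0.993) and Rxrg (0.981), and to Hes1, at lower coefficients, Fras1 (0.972), Cd209c (0.971) and Dab2 (0.967).

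KO and WT cells were then compared within each stage. In mESCs none of the 10 genes passed the test, when 0.529% of all tested genes did. At an unadjusted p under 0.05, 2 did, Jag1 (0.39, SE 0.15) and Rbpj (-0.40, SE 0.11), against 7.66% of all genes. Without overlap between genotypes were 3 of the 10 genes, against 11% of all genes. Rbpj was lower in each KO library, at 37.1 to 43.2 FPKM, than in the WT libraries, at 49.0 to 54.7. Libraries of the same replicate number deviated together in mESCs, and in the fit with a replicate block Rbpj was called (-0.40, adjusted p 0.0267), compared with an adjusted p of 0.132 without it.

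At day 7, Hey1 and Dll3 were lower and Hes3 was higher in KO cells. These 3 of the 10 genes were called, against 3.68% of all tested genes, and 8 of the 10 had no overlap between KO and WT libraries, against 24% of all genes. Dll3 was at 3.53 ± 0.306 FPKM in KO and 9.69 ± 2.13 in WT cells (SD, n = 3 each), a log2 difference of -1.22 (SE 0.29, adjusted p 0.0172). Hey1 was at 4.08 ± 0.305 in KO and 9.24 ± 2.17 in WT cells, a difference of -0.99 (SE 0.26, adjusted p 0.0295). Hes3 was at 15.0 ± 1.62 in KO and 7.17 ± 2.61 in WT cells, a difference of 1.02 (SE 0.24, adjusted p 0.0124). The repressor gene Hes3 and the related Hey1 thus differed in opposite directions. With a pseudocount of 0.1 the Hes3 difference was 1.12 and no longer called (adjusted p 0.361). None of the 3 calls held without WT day 7 replicate 2, WT day 7 replicate 3 or KO day 7 replicate 3, and 1 held without KO day 7 replicate 1 or KO day 7 replicate 2.

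Of the other genes at day 7, the KO libraries were all below the WT libraries for Notch1 (-0.58, SE 0.17, adjusted p 0.0712), Notch2 (-0.39, SE 0.13, adjusted p 0.117) and Hes1 (-0.44, SE 0.25, adjusted p 0.487), and all above them for Dll1 (0.55, SE 0.23, adjusted p 0.244) and Hes5 (1.00, SE 0.56, adjusted p 0.489). These differences did not pass the test, although with the day 7 groups fitted alone Hes1 did (adjusted p 0.0372). Jag1 (0.06, SE 0.15) and Rbpj (0.08, SE 0.11) overlapped between genotypes. The median over the 10 genes was -0.16, against 0 over all tested genes.

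At day 9, Hey1 and Notch2 were lower and Hes3 was higher in KO cells, 3 of 10 genes against 6.68% of all tested genes. Hey1 was at 11.4 ± 2.55 FPKM in KO and 28.1 ± 5.04 in WT cells (SD, n = 3 each), a log2 difference of -1.24 (SE 0.26, adjusted p 0.00341). This call held with each of the 6 libraries left out in turn. Notch2 was at 9.71 ± 0.0407 in KO and 14.6 ± 2.09 in WT cells, a difference of -0.53 (SE 0.13, adjusted p 0.0131), which was lost without WT day 9 replicate 2, WT day 9 replicate 3 or KO day 9 replicate 1. Hes3 was at 4.25 ± 1.49 in KO and 1.89 ± 0.955 in WT cells, a difference of 0.87 (SE 0.24, adjusted p 0.0245). The Hes3 libraries overlapped, with 2.87 FPKM in the lowest KO and 2.95 in the highest WT library, and the call was lost with a pseudocount of 0.1 (adjusted p 0.250), with the groups of the comparison alone (0.0815), with libraries scaled to the same sum (0.0539) and without any of 4 libraries (WT or KO day 9 replicates 2 and 3).

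At day 9, 5 of the 10 genes had no overlap between KO and WT libraries, against 32.3% of all genes. Besides Hey1 and Notch2 these were Notch1 (-0.49, SE 0.17, adjusted p 0.105, or 0.0251 with the day 9 groups fitted alone) and Jag1 (-0.21, SE 0.15, adjusted p 0.522), lower in KO cells, and Dll1 (0.38, SE 0.23, adjusted p 0.443), higher in KO cells. Dll3 (-0.49, SE 0.29, adjusted p 0.434), Hes1 (-0.09, SE 0.25), Hes5 (0.21, SE 0.56) and Rbpj (-0.06, SE 0.11) overlapped. The median over the 10 genes was -0.15, against 0 over all genes.

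**Figure D2:**
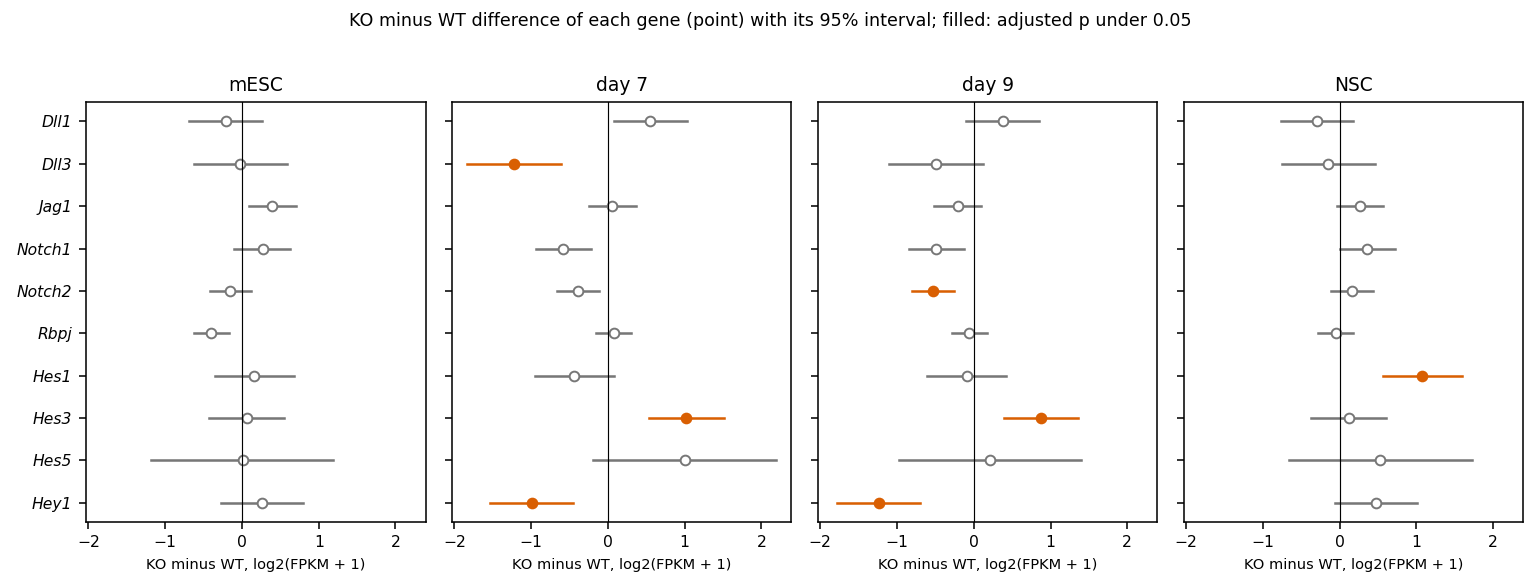
KO minus WT difference on the log2(FPKM + 1) scale (x axis) of the 10 Notch pathway genes (y axis) in each stage, with 95% intervals as lines; filled orange points had an adjusted p under 0.05. Hey1 lies below 0 at day 7 and day 9 and Hes3 above 0, Dll3 is called at day 7, Notch2 at day 9 and Hes1 in NSCs, and no gene is called in mESCs.

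In NSCs Hes1 was higher in KO cells and was the gene called among the 10, against 6.02% of all tested genes. It was at 69.2, 43.5 and 44.7 FPKM in KO and 13.1, 24.4 and 41.9 in WT cells, a log2 difference of 1.07 (SE 0.25, adjusted p 0.0108). The lowest KO library lay just above the highest WT library, and Hes1 was the gene of the 10 without overlap, against 16.7% of all genes. Without WT NSC replicate 1 the difference was 0.66 (SE 0.19, adjusted p 0.0252). The call was lost without KO NSC replicate 1 and with the NSC groups fitted alone (adjusted p 0.363), a fit that called 58 of the 12105 tested genes in place of 729.

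WT NSC replicate 1 had the lowest WT value for Dll1, Dll3, Notch1, Hes1, Hes5 and Hey1 and the highest for Jag1. Its Hes5 value of 15.3 FPKM compares with 157 and 81.6 in the other WT libraries, its Dll3 value of 14.2 with 50.5 and 30.1, and its Hey1 value of 20.2 with 47.1 and 39.0. With this library Hes5 was higher in KO than in WT NSCs by 0.53 (SE 0.56, adjusted p 0.719), and without it Hes5 was lower by 0.41 (SE 0.37, adjusted p 0.574). Neither passed the test. The same library had Syt1, a synaptic vesicle gene, at 19.5 FPKM against 1.97 and 2.1 in the other WT libraries, and S100b, a glial gene, at 4.69 against 17.4 and 26.5. None of the other 8 genes passed the test in NSCs with or without this library. Among the ligands and receptors the differences with all libraries, and then without it, were -0.29 (SE 0.23) and -0.54 (SE 0.23) for Dll1, -0.15 (SE 0.29) and -0.61 (SE 0.24) for Dll3, 0.26 (SE 0.15) and 0.42 (SE 0.15) for Jag1, 0.36 (SE 0.17) and 0.09 (SE 0.15) for Notch1, and 0.16 (SE 0.13) and 0.16 (SE 0.15) for Notch2. For Rbpj they were -0.05 (SE 0.11) and -0.02 (SE 0.12), for Hes3 0.12 (SE 0.24) and 0.05 (SE 0.26), and for Hey1 0.47 (SE 0.26) and 0.12 (SE 0.23). The adjusted p was 0.282 or more in each with all libraries and 0.0698 or more without it, when 1352 of the 12105 tested genes were called.

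**Figure D3:**
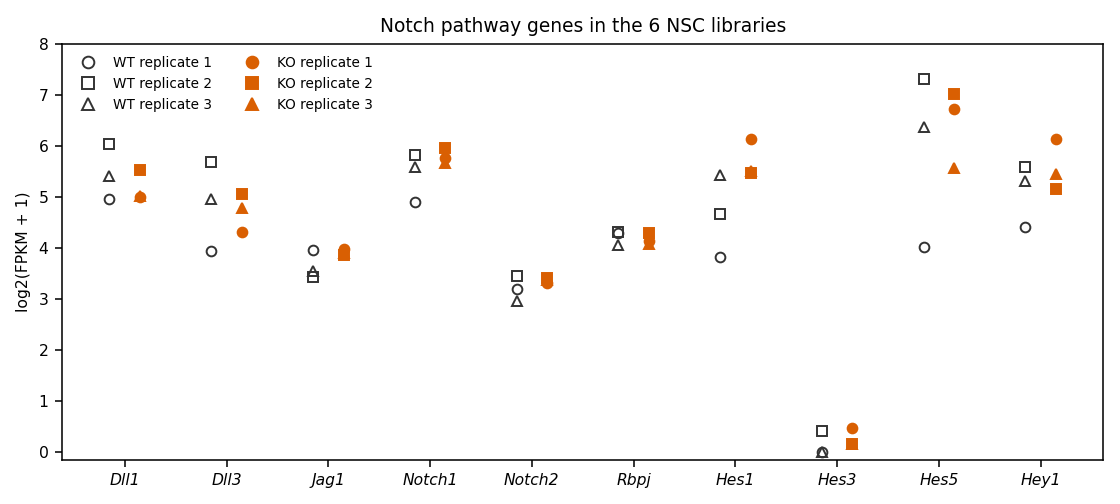
Level of each of the 10 genes, as log2(FPKM + 1) (y axis), in the 6 NSC libraries, with WT as open and KO as filled orange symbols and the replicate given by the shape. WT replicate 1 (open circle) is the lowest WT library for Dll1, Dll3, Notch1, Hes1, Hes5 and Hey1, and the 3 KO libraries of Hes1 lie above the 3 WT libraries.

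The KO effect was also compared between stages, as the KO minus WT difference of a stage less that of mESCs. These comparisons share the mESC libraries and were called for 1.68%, 2.68% and 2.26% of all tested genes at day 7, day 9 and in NSCs. Of the 10 genes, Hey1 was called, at day 9. Its KO minus WT difference was 0.26 (SE 0.26) in mESCs, -0.99 (SE 0.26) at day 7, -1.24 (SE 0.26) at day 9 and 0.47 (SE 0.26) in NSCs, so that the day 9 effect lay 1.5 below that of mESCs on the log2 scale (-1.5, SE 0.36, adjusted p 0.0261). At day 7 the corresponding value was -1.25 (SE 0.36, adjusted p 0.0943, or 0.0304 with these groups fitted alone) and in NSCs 0.21 (SE 0.36, adjusted p 0.866), or -0.14 (SE 0.31, adjusted p 0.885) without WT NSC replicate 1. The day 9 call was lost without any of 8 of the 12 libraries, namely WT and KO mESC replicates 1 and 2, WT day 9 replicates 2 and 3, and KO day 9 replicates 1 and 3. Same-numbered libraries deviated together in mESCs and not at day 9, and with a replicate block the Hey1 call was lost too (-1.5, adjusted p 0.0918), while Dll3 (-1.20, adjusted p 0.0450) and Rbpj (0.48, adjusted p 0.0331) were called for the KO effect at day 7. At an unadjusted p under 0.05, 6, 5 and 2 of the 10 genes differed between stages in this way, against 9.84%, 12.4% and 14% of all genes.

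The rest of the pathway was taken from a list of 49 genes drawn up from general knowledge, with the 10 genes among them. It holds 4 receptors, 5 ligands, 23 genes that process receptor or ligand, 8 nuclear cofactors and 9 genes listed as targets, Hes6 among them. Of these 49 genes 43 were tested. Between KO and WT cells, 0 of the 43 differed among mESCs, 3 on day 7, 4 on day 9 and 5 among NSCs (limma, adjusted p under 0.05), when 0.529%, 3.68%, 6.68% and 6.02% of all tested genes were called. In mESCs 7 had an unadjusted p under 0.05, against 7.66% of all genes. The median KO minus WT difference of the list was 0.04, 0.01, -0.05 and 0.08 in these stages, against 0, 0, 0 and 0.01 over all tested genes. At day 7 the calls were those of Dll3, Hes3 and Hey1.

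**Figure D4:**
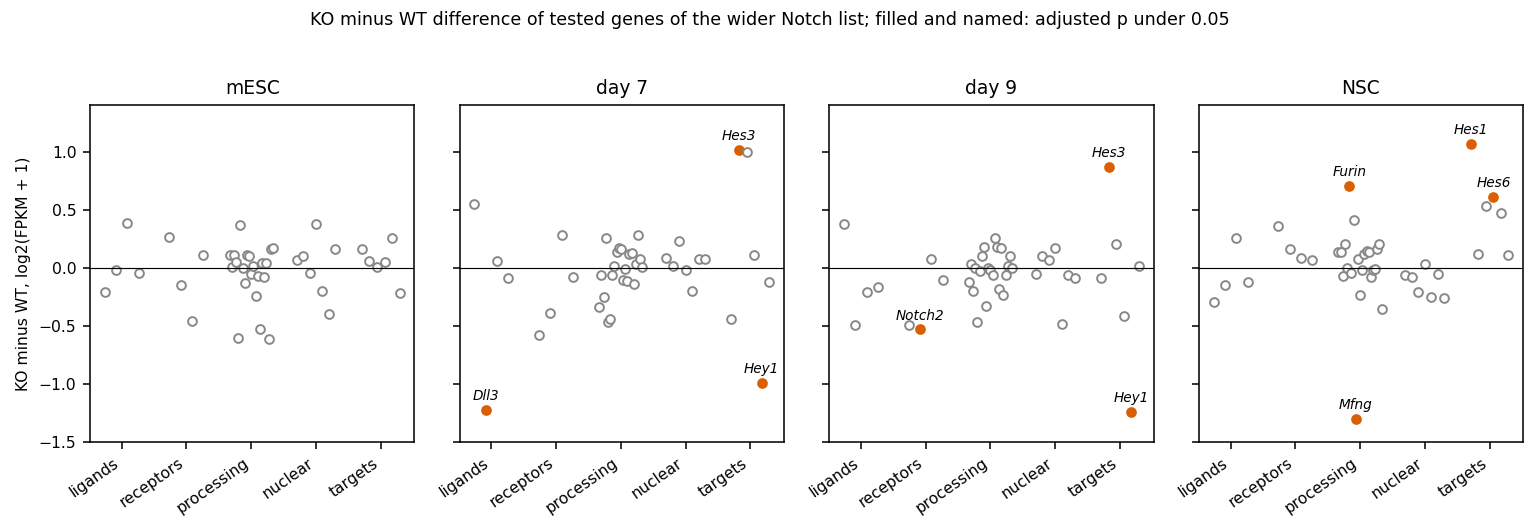
KO minus WT difference on the log2(FPKM + 1) scale (y axis) of tested genes of the wider Notch list by role (x axis) in each stage, with not every gene of the list drawn; filled, named points had an adjusted p under 0.05. Most drawn genes lie between -0.5 and 0.5, no gene is called in mESCs, and the 21 processing genes have calls in NSCs alone, Furin and Mfng.

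In NSCs Mfng, a glycosyltransferase gene of the Fringe family that modifies Notch receptors, was at 6.99, 13.1 and 10.5 in WT and 5.13, 3.44 and 2.2 in KO cells (-1.30, SE 0.20, adjusted p 0.000247). Libraries of the same number deviated together in NSCs, and in the fit with the replicate block Mfng kept its call (adjusted p 0.00293). Furin, the protease gene for the first cut of the receptor, was at 7.33, 8.65 and 7.49 in WT and 11.5, 13.7 and 15.1 in KO cells (0.71, SE 0.13, adjusted p 0.00123). Hes6, a Hes family gene known to favour neuronal differentiation, was at 57.9, 72.5 and 69.7 in WT and 96.4, 120 and 91.5 in KO cells (0.61, SE 0.17, adjusted p 0.0370), and this call was lost without any library other than WT NSC replicate 2. Without WT NSC replicate 1, Rfng (-0.55, SE 0.16, adjusted p 0.0246), a further Fringe gene, and Mib2 (-0.68, SE 0.16, adjusted p 0.00889), a ubiquitin ligase gene, were called lower in KO NSCs.

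Over the stages most genes of the wider list were called, as were most of all tested genes. Against WT mESCs, 21 of the 43 were higher and 8 lower at day 7, 27 were higher and 5 lower at day 9, and 27 were higher and 9 lower in NSCs, with medians of 0.26, 0.76 and 0.61 on the log2 scale. These are 29, 32 and 36 calls of 43, against 59.2%, 71.5% and 75.2% of all tested genes, of which 29.1%, 36.4% and 36.9% were called higher. In KO cells 19 were higher and 9 lower, 26 and 6, and 27 and 10, or 28, 32 and 37 calls of 43, against 61.3%, 71.3% and 76.0% of all genes. The 6 tested genes listed as targets, Hes6 included, had medians of 2.65, 3.16 and 2.85 in WT cells and 2.24, 2.34 and 3.29 in KO cells. Those of the 4 tested ligands were 1.97, 2.86 and 2.65 in WT cells and 1.36, 2.38 and 2.52 in KO cells. In WT cells the 4 receptors had medians of 1.08, 1.81 and 1.52, the 21 processing genes of -0.07, 0.21 and 0.40 and the 8 nuclear genes of 0.14, 0.29 and 0.30. Among the receptors outside the 10, named after their values were seen, Notch4 moved against the others, from 9.44 to 19.1 FPKM in WT mESCs to 0.0828 to 0.307 in WT NSCs. Notch3 rose from 2.73 to 7.61 FPKM in WT mESCs to 23.5 to 26.2 at day 9.

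Of the 49 genes 6 fell below the filter of a mean FPKM of at least 1, namely Dll4, Aph1c, Neurl1b, Hes7, Hey2 and Heyl. In a fit without the filter, Dll4 and Heyl were called at day 9, where 1221 of 18156 genes were, and Hes7 in NSCs, where 876 were. The ligand gene Dll4 was at 4.17, 4.75 and 4.45 FPKM in WT and 0.994, 1.62 and 2.03 in KO cells at day 9, and the target gene Heyl at 2.57, 5.06 and 6.23 in WT and 0.207, 0.649 and 0.269 in KO cells. The log2 differences were -1.12 (SE 0.13, adjusted p 4.46e-06) and -1.98 (SE 0.18, adjusted p 2.37e-07) by limma. Their SE is drawn from all 8 groups, most of them near 0 for these genes, and can understate the spread at day 9. No fit of the day 9 groups alone was made for genes below the filter. Dll4 was at or below 0.312 FPKM in every library outside day 9, and Heyl at or below 0.741. Hes7, a gene known from the segmentation clock, was near 0 throughout NSCs, at 0, 0.469 and 0.232 FPKM in WT and 0.824, 1.23 and 0.470 in KO cells (0.57, SE 0.16, adjusted p 0.0362). Dll4 and Heyl are known from blood vessels as well as from neural tissue, and of 8 endothelial markers the summed level at day 9 was 10.5 to 27.1 FPKM in WT and 5.63 to 10.1 in KO cells. Of 3 tested endothelial markers none was called at day 9, and all 3 had an unadjusted p under 0.05, against 17.3% of all tested genes. Their part in these differences was not tested.

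Genes of the cell types that Notch signalling acts on moved in the same comparisons. Of 5 tested proneural factors, 3 were lower in KO cells at day 9, where 6.68% of all tested genes were called, and none was called in the other stages. These were Neurod4 (16.8 to 19.9 FPKM in WT and 5.50 to 8.27 in KO cells, log2 difference -1.39, SE 0.16, adjusted p 5.76e-06), Neurod1 (6.70 to 8.88 and 1.64 to 3.90, -1.19, SE 0.22, adjusted p 0.000892) and Neurog1 (12.2 to 21.1 and 6.13 to 11.6, -0.87, SE 0.26, adjusted p 0.0432). Of 12 neuron markers 7 were lower in KO cells at day 9 and none higher, against the same 6.68%, among them Gap43 (118 to 164 and 35.8 to 51.6 FPKM, -1.80, SE 0.26, adjusted p 8.49e-05) and Nefl (151 to 191 and 50.7 to 68.7, -1.56, SE 0.26, adjusted p 0.000444). The summed level of the 12 neuron markers was 931 to 1055 FPKM in WT and 432 to 592 in KO cells at day 9, where Hey1 and Notch2 were lower and Hes3 higher. At day 7 the sum was 144 to 186 in WT and 196 to 234 in KO cells. The calls of Neurod4, Neurod1, Gap43 and Nefl held with each library left out, and that of Neurog1 was lost without WT or KO day 9 replicate 1, WT day 9 replicate 2 or KO day 9 replicate 3. Tubb3, the neuron marker with the highest mean over the 24 libraries, was at 345 to 375 FPKM in WT and 180 to 272 in KO cells at day 9 (adjusted p 0.485). The part of these markers in the Notch gene differences was not tested.

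**Figure D5:**
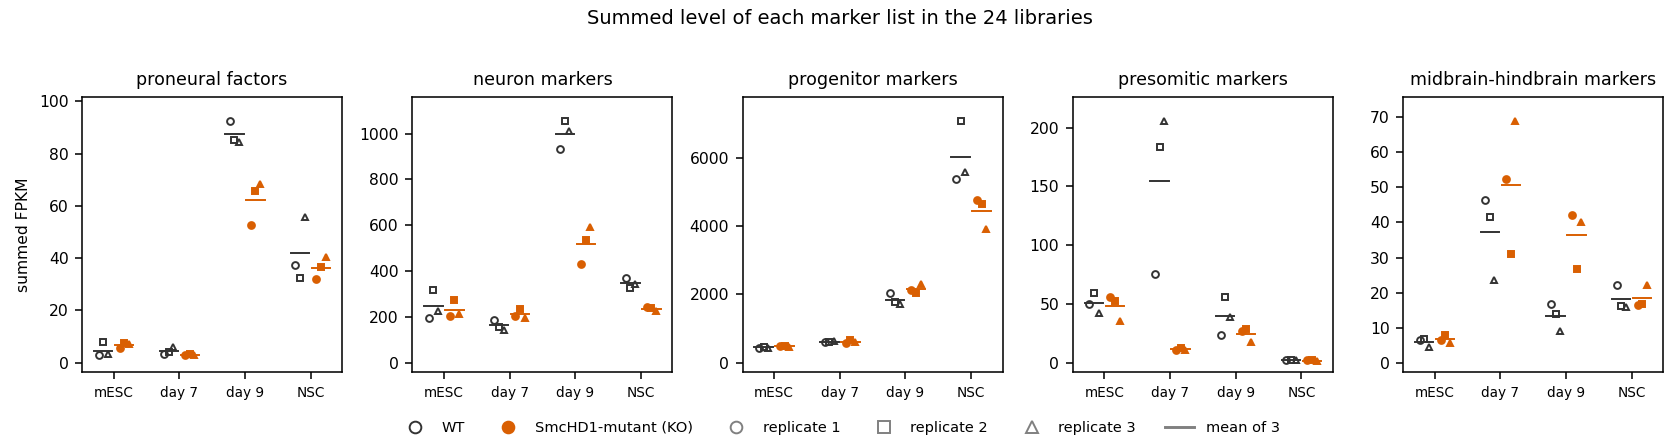
Summed FPKM (y axis) of 7 proneural factors, 12 neuron, 10 progenitor, 10 presomitic and 8 midbrain-hindbrain markers in the 24 libraries by stage (x axis), with WT as open and KO as filled orange symbols and each line the mean of 3. At day 9 the proneural and neuron sums are lower in the 3 KO libraries than in the 3 WT libraries, and the presomitic sum is lower in KO cells at day 7.

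Of 10 progenitor markers 2 were higher and 1 lower in KO cells at day 9, against 6.68% of all tested genes called. Sox1, an early neural factor, was at 24.9 to 33.0 FPKM in WT and 46.2 to 46.9 in KO cells (0.74, SE 0.19, adjusted p 0.0197), Pax6 at 26.0 to 54.6 and 50.3 to 70.5 (0.83, SE 0.24, adjusted p 0.0368), and Slc1a3, a glutamate transporter gene of radial glia, differed by -1.5 (SE 0.25, adjusted p 0.000381). In NSCs, where Hes1 was higher in KO cells, 4 of the 10 were lower in KO cells, against 6.02% of all tested genes called, Prom1 (-1.41, SE 0.17, adjusted p 1.52e-05), Sox9 (-0.75, SE 0.22, adjusted p 0.0420), Vim (-0.55, SE 0.16, adjusted p 0.0415) and Sox2 (-0.49, SE 0.13, adjusted p 0.0308). Of these calls that of Prom1 held with each library left out, and those of Sox2, Sox9 and Vim were lost without at least 4 of the 6 libraries and with libraries scaled to the same sum, as were those of Sox1 and Pax6 at day 9 under that scaling. Without WT NSC replicate 1 the Vim call was among those lost, and Sox1 was called higher in KO NSCs (0.73, SE 0.21, adjusted p 0.0236). The progenitor sum, mostly Fabp7, was 5380 to 7074 FPKM in WT and 3899 to 4746 in KO NSCs. Fabp7 itself was at 3264 to 4998 and 2286 to 3089 FPKM and was not called. Of 12 neuron markers 3 were lower in KO NSCs, Syt1 (-1.81, SE 0.44, adjusted p 0.0167), Stmn3 (-1.30, SE 0.21, adjusted p 0.000377) and Gap43 (-1.11, SE 0.26, adjusted p 0.0120), with sums of 327 to 369 and 226 to 241 FPKM. The Syt1 difference was -0.89 (SE 0.20, adjusted p 0.00626) without WT NSC replicate 1, and its call was lost without KO NSC replicate 2 or 3 and with the groups fitted alone (adjusted p 0.408). Also lost was the Gap43 call without WT NSC replicate 3 or KO NSC replicate 2. Stmn2 (-0.65, adjusted p 0.00295) and Snap25 (-0.64, adjusted p 0.0255) were called lower as well without WT NSC replicate 1. Of 7 tested glial markers S100b was higher in KO NSCs (1.37, SE 0.35, adjusted p 0.0226), a call lost without WT NSC replicate 1 (0.70, SE 0.23, adjusted p 0.0567) or KO NSC replicate 3. Without WT NSC replicate 1, Pdgfra was called lower in KO NSCs (-1.37, SE 0.28, adjusted p 0.00254), and with it the difference was -0.76 (adjusted p 0.274). The sum of 9 such markers, mostly Olig1, was 1485 to 1516 FPKM in WT and 1765 to 1903 in KO cells. The part of these markers in the Hes1 difference was not tested.

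At day 7 the cultures also held RNA of other lineages, some of which is known to use Notch genes. Dll3 and Hey1, lower in KO cells there, are known from presomitic mesoderm as well. The KO minus WT difference was called for 3.68% of all tested genes at day 7 and 6.68% at day 9. All 4 tested presomitic markers were lower in KO cells at day 7, led by T (52.1 to 132 FPKM in WT and 0.719 to 2.03 in KO cells, log2 difference -5.26, SE 0.44, adjusted p 2.92e-07), Meox1 (-3.47, SE 0.56), Rspo3 (-2.46, SE 0.21) and Tcf15 (-1.67, SE 0.32). The sum of 10 presomitic markers, mostly T in WT cells, was 75.2 to 206 FPKM in WT and 10.6 to 12.4 in KO cells. Among listed markers below the filter, Mesp2 was higher in each KO library at day 7 (0.860 to 1.44 FPKM, against 0.370 to 0.809 in WT). Tbx6 and Ripply2 overlapped between genotypes there. Msgn1 and Mesp1 were at 0 in the KO libraries of day 7, and Cited1 was at 0 in both genotypes. The Meox1 call was lost with the groups fitted alone (adjusted p 0.0940). At day 9, where Hey1 was lower as well, 2 of the 4 were lower in KO cells, T (-1.80, SE 0.44, adjusted p 0.0157) and Meox1 (-2.25, SE 0.56, adjusted p 0.0174), both lost without any of 4 libraries (WT day 9 replicates 2 and 3, KO day 9 replicates 1 and 3). Rspo3 was higher there, at 4.87 to 9.98 FPKM in KO and 0.560 to 1.06 in WT cells (2.06, SE 0.21, adjusted p 9.44e-07), and Tcf15 was not called (0.18, SE 0.32). The presomitic sum at day 9 overlapped between genotypes, at 23.9 to 55.8 in WT and 17.8 to 28.2 in KO cells. Of 4 tested endoderm markers 3 were lower in KO cells at day 7, Cer1 (-4.70, SE 0.33), Foxa2 (-4.09, SE 0.40) and Sox17 (-2.69, SE 0.27), with sums over 8 markers of 89.0 to 185 and 31.3 to 42.2 FPKM at day 7. At day 9 Foxa2 was called (-2.85, SE 0.40), with endoderm sums of 96.2 to 118 in WT and 78.4 to 86.9 in KO cells. Cxcr4, the endoderm marker with the highest mean over the 24 libraries, was at 28.0 to 37.4 in WT and 30.1 to 39.3 in KO cells at day 7. Of 6 tested midbrain-hindbrain markers 3 were higher in KO cells at day 7, En1 (3.26, SE 0.38), Wnt1 (3.00, SE 0.34) and Pax2 (1.52, SE 0.25), where Hes3, a gene known from the midbrain-hindbrain boundary, was higher too. Fgf8, the marker of this list with the highest mean over the 24 libraries, was at 17.9 to 38.6 FPKM in WT and 10.4 to 14.7 in KO cells at day 7 (adjusted p 0.0770), and the sum of 8 markers was 23.5 to 46.5 in WT and 30.9 to 69.0 in KO cells. At day 9 En2 (1.63, SE 0.24) and Wnt1 (2.71, SE 0.34) were higher, and the sum of the 8 markers was 8.96 to 16.8 FPKM in WT and 26.6 to 42.2 in KO cells. The part of these lineages in the differences of Dll3, Hey1 and Hes3 was not tested.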

How the data were processed

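Poly(A) RNA of 24 libraries was sequenced as single-end reads after the Illumina Stranded mRNA Prep, trimmed with Trim Galore 0.6.6, aligned to mm9 with TopHat2 2.1.1 and quantified with Cuffdiff by the authors, who removed reads of the X chromosome and ribosomal RNA. The deposited values are FPKM, so no count test was used, and the library scaling and strand setting are not given in the sources used here. A set of 12 FPKM columns that belong to no sample used here was left out. Total reads were not used here, but 96.7% of 31400 low values were whole multiples of a smallest step (tolerance 5%), from which the relative read numbers were taken.

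Loci outside X and Y with a mean of at least 1 FPKM and no failed estimate (12105) were fitted as log2(FPKM + 1) in R 4.3.3 with limma 3.58.1, helped by statmod 1.5.0 and the data.table package (version 1.17.8), over all 8 groups, with trended and robust variance moderation. The two-sided p of each of 17 comparisons was adjusted by Benjamini-Hochberg and called under 0.05. The fit was tested on simulated data. Tables, sequences and plots were made with Python 3.11.15, numpy 2.4.6, pandas 2.3.3 and matplotlib 3.10.9, and strands were taken from GENCODE for mm9. Alternatives were a pseudocount of 0.1, no filter, the compared groups alone, a replicate block, libraries scaled to the same sum and each library left out.

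The 10 genes, the wider list and the marker lists were chosen with earlier results of these data known. Named were the 10 genes, genes of the wider list called between KO and WT, per marker list the most abundant gene and at most 4 called genes per stage by size, for each of the 10 genes the 3 nearest tested genes outside the wider list, and Smchd1. Samples were grouped by their labels. Same-numbered WT and KO libraries deviated together in mESCs (correlations 0.29, 0.44 and 0.14) and NSCs (0.34, 0.18 and 0.24), which pairs them there. At the other stages they did not pass 0.1 in every pair. Some results that these rules select are not reported here.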

Additional observations from a re-analysis of the deposited data

Results flagged for a closer look

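The KO effect on Hey1 differed between day 9 and mESCs by a test of the difference itself, at -1.5 on the log2(FPKM + 1) scale (SE 0.36, adjusted p 0.0261, limma). The call was lost with a replicate block (adjusted p 0.0918) and without any of 8 of the 12 libraries. All 3 KO libraries lay below the 3 WT libraries at day 9, and the libraries overlapped in mESCs, where Hey1 was at 0.716 to 1.17 FPKM in WT and 1.06 to 1.73 in KO cells.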

How the results depend on the processing

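Of the reported differences of the 10 genes, 130 of 130 kept their direction and their side of the threshold without the filter on low values, 128 with a pseudocount of 0.1, 126 with libraries scaled to the same sum of FPKM, 123 with a replicate block and 119 with the compared groups alone. The cause of the changes was not tested. With the replicate block, 1 gene was called between KO and WT mESCs (Rbpj) and Hes1 in NSCs kept its call (adjusted p 0.0481). For the KO effect, whose libraries the numbers pair in mESCs but not at day 7 or day 9, the block gave 2 calls at day 7 (Dll3 and Rbpj) and 0 at day 9, where Hey1 lost its call, when 330 and 452 of all genes were called. In comparisons whose libraries the replicate numbers do not pair, the KO minus WT calls of Hey1 at day 7 (adjusted p 0.0958) and Hes3 at day 9 (0.0561) and that of Jag1 in KO NSCs against day 9 (0.0542) were lost. With the compared groups alone, 0 of the 10 genes were called between KO and WT NSCs and 2 for the KO effect at day 7, in fits that called 58 and 153 of all 12105 tested genes, compared with 729 and 203 with all groups fitted. Leaving out each library in turn gave 0 to 3 calls between KO and WT at day 7, 1 to 3 at day 9 and 0 to 1 in NSCs, 8 to 9 for WT NSCs against mESCs, 5 to 8 for WT NSCs and 4 to 5 for KO NSCs against day 9, 5 to 7 for WT day 9 against day 7, and 0 to 1 for the KO effect at day 9 and also in NSCs. Of differences that were not called, leaving out a library turned the sign or brought the value to 0 in some fits, with KO minus WT ranges of -0.36 to 0.04 for Dll1 in mESCs, -0.10 to 0.12 for Dll3 in mESCs, -0.61 to 0.27 for Dll3 in NSCs, -0.05 to 0.15 for Jag1 at day 7, -0.01 to 0.18 for Rbpj at day 7. The further ranges were -0.11 to 0 for Rbpj at day 9, -0.17 to 0.03 for Hes1 at day 9, 0 to 0.09 for Hes3 in mESCs, -0.08 to 0.08 for Hes5 in mESCs, -0.41 to 1.23 for Hes5 in NSCs, and -0.14 to 0.45 for the KO effect on Hey1 in NSCs, and for Hes5 in WT NSCs against day 9 the range was -0.66 to 0.98. Rbpj in NSCs moved to 0 when libraries were scaled to the same sum. With 3 libraries a group and 1 line per genotype, small differences are not detectable, and values near 0 FPKM rest on single reads.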
